A study of Drosophila melanogaster with 18 samples.

Results

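The response of thoraces of Act88F-GS-Gal4 flies to RU486 was described across the genome, outside the mitochondrial genes, for muscle, immunity, metabolism and their regulators. The samples were the 6 of the 18 in the series whose labels name this stock and the thorax, 3 from flies fed RU486 and 3 from flies fed its carrier, ethanol (control). RU486 (mifepristone) is the drug used to switch on GeneSwitch drivers, and each stock of the series was sampled with and without it. Male flies had 4 days on normal food and then 10 days on food with 100 µM RU486 in ethanol or with ethanol alone. The remaining samples are w1118 thoraces and elav-GS-Gal4 heads under the same treatments, of which the 6 w1118 thoraces serve here as a stock without the driver.

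Both groups carried the Act88F-GS-Gal4 transgene. In it, a genomic fragment around the transcription start of Act88F, the actin gene of the indirect flight muscles, drives GeneSwitch, a form of Gal4 that becomes active on binding RU486. The transgene was injected into yw embryos and 1 line with little activity in the absence of drug was kept, so effects of the drug and of drug-bound GeneSwitch cannot be told apart within this stock. The labels name no UAS target gene, and the GeneSwitch transcript is not among the genes counted. A thorax holds flight and leg muscle together with gut, fat body, epidermis, blood cells and nerve cord, and in such bulk RNA fewer cells of a type and less RNA per cell cannot be told apart. The study describes its replicates as biological triplicates, and p-values measure the spread between these 3 samples per group.

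Indirect flight muscle is a fibrillar muscle, specified by the transcription factors spalt major (salm) and vestigial (vg) and by the splicing factor arrest (aret), and it contracts by stretch activation with its own actin and troponin C. It burns carbohydrate through glycolysis and the glycerophosphate shuttle, with proline as an added fuel. Flies defend themselves with secreted peptides that are made mainly in the fat body, under the IMD pathway (attacins, diptericins, drosocin, cecropins) and the Toll pathway (drosomycin and a family of short immune-induced peptides).

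Libraries held 34020840 to 61288715 reads counted on genes. Of counted and unassigned reads together, 11.6% to 13.3% lay on no gene in controls and 8.86% to 9.43% after RU486. Those without a unique place were 8.07% to 9.66% in controls and 5.28% to 5.81% after RU486. The reason for these group differences was not tested. Values are given as CPM, the counts of a gene after scaling to a common library total, adjusted between the 6 libraries by edgeR's TMM factors, and are listed in the order of replicates 1, 2 and 3. Control replicate 1 stood apart in its photoreceptor genes, whose summed level over 13 genes was 2289 CPM there and 152.5 to 284 CPM in the other 5 libraries, although none of the 13 passed the test. RU486 replicate 3 stood apart in muscle: the sum of 10 flight muscle markers was 31814 to 36791 CPM in the controls, 15333 and 17071 CPM in RU486 replicates 1 and 2, and 28005 CPM in RU486 replicate 3. All 10 of these markers were detected, and 6 were lower after RU486 (60%). Over all genes tested, 12.6% were higher and 19.9% lower after RU486. Summed fat body markers (0 of 8 called) ranged from 5121 to 6789 CPM in controls and from 5779 to 9808 CPM after RU486, and summed hemocyte markers (2 higher and 1 lower of 12) from 1243 to 2173 CPM and from 1684 to 1965 CPM.

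RU486 changed 3444 of the 10600 genes tested (32.5%), with 0.05 as the limit on p after Benjamini-Hochberg adjustment of edgeR's quasi-likelihood test, which gave every adjusted p of this stock. Genes that rose made up 12.6% of those tested (1332) and genes that fell 19.9% (2112), while 284 (2.68%) rose and 502 (4.74%) fell by more than 1 on the log2 scale. Every RU486 sample lay above every control in 22.4% of the genes and below every control in 27.4%. The genes that rose took 11.3% to 11.9% of all CPM in the controls and 19.2% to 21.6% after RU486, and those that fell went from 32.3% to 34.9% down to 19.4% to 20.6%. The split depends on the scaling: 38.7% of the calls were rises with TMM factors, and 67.5% were rises when libraries were scaled by total counts alone, which moved the median log2 fold change of all genes from 0.01 to 0.18. Antimicrobial peptide genes made up 7 of the 8 largest rises (genes whose mean log2 CPM reached 4 or more), and the other was CG7953, at 23.3, 11.7 and 9.004 CPM in controls and 251, 236 and 80.2 CPM after RU486.

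Antimicrobial peptide genes rose the most of the 42 gene lists described, by their median. Of 15 genes, 14 rose (93.3%, against 12.6% of all genes) and none fell, and the median of their log2 fold changes was 4.83. Their CPM summed to 159.8, 253 and 429 in controls and to 8327, 4301 and 3348 after RU486. The highest control sum was thus far under the lowest RU486 sum, and RU486 replicate 1 was the highest of the treated libraries.

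Among the IMD-type peptides, Dro, which encodes drosocin, stood at 8.95, 8.88 and 20.4 CPM in controls and at 1188, 602 and 597 CPM after RU486, a 62.6-fold rise (log2 fold change 5.97, SE 0.52, adjusted p = 0.000643). The attacin genes AttA (3.48, 2.81 and 5.11 against 192, 125 and 85.4 CPM) and AttB (10.5, 8.98 and 14.7 against 593, 392 and 268 CPM) rose 35.2-fold and 36.7-fold. Their sequences are close enough that reads may be shared between them, so the division between these neighbours is uncertain, as it is for the cecropin genes. AttC rose from 14.9, 27.3 and 47.1 CPM to 1505, 617 and 416 CPM. In all of these the RU486 range lay wholly above the control range. The cecropin gene CecA1 rose from 1.89, 0.991 and 3.61 CPM to 177, 128.3 and 35.7 CPM, and edin, a small secreted peptide induced by infection, from 0.467, 0.447 and 1.16 CPM to 76.2, 34.9 and 9.55 CPM.

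The diptericin genes varied more among controls. DptB stood at 10.96, 41.6 and 82.9 CPM in controls and 1358, 625 and 505 CPM after RU486 (log2 fold change 4.20, SE 0.81, adjusted p = 0.0105), and Dpt at 31.2, 17.0 and 83.4 and 1717, 881 and 471 CPM. Leaving out RU486 replicate 1 lowered the log2 fold changes of AttC, Dpt and edin to 4.12, 3.95 and 5.03, and leaving out control replicate 3 raised those of Dpt and DptB to 5.40 and 4.98. DptB remained called when any 1 library was left out, with an adjusted p of up to 0.0499, and the number of called antimicrobial genes ranged from 11, without control replicate 2, to 14. AttD, an attacin without a signal peptide, was the member that did not pass the test, at 1.97, 3.61 and 5.25 CPM and 7.68, 19.3 and 3.88 CPM (log2 fold change 1.53, adjusted p = 0.115). On the Toll side the antifungal peptide gene Drs, drosomycin, rose from 31.6, 55.1 and 54.7 CPM to 567, 346 and 599.7 CPM (log2 fold change 3.42, SE 0.32).

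The short peptides induced through Toll rose with them, by less. Of 15 tested, 13 rose (86.7%, against 12.6% of all genes) and none fell, and their median was 1.25 on the log2 scale. IM23 went from 16.7, 11.6 and 12.4 CPM to 107, 53.7 and 211 CPM, a log2 fold change of 3.19 that dropped to 2.58 without RU486 replicate 3. IM1 went from 84.7, 72.5 and 83.6 CPM to 365, 225 and 493 CPM, and CG43202 from 3.52, 3.04 and 3.78 CPM to 12.2, 7.61 and 17.2 CPM. In these 3 genes RU486 replicate 2 was the lowest treated library and still lay above every control, and the members that did not pass were CG18107 and CG15068, at log2 fold changes of 0.39 and 0.13.

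**Figure D1:**
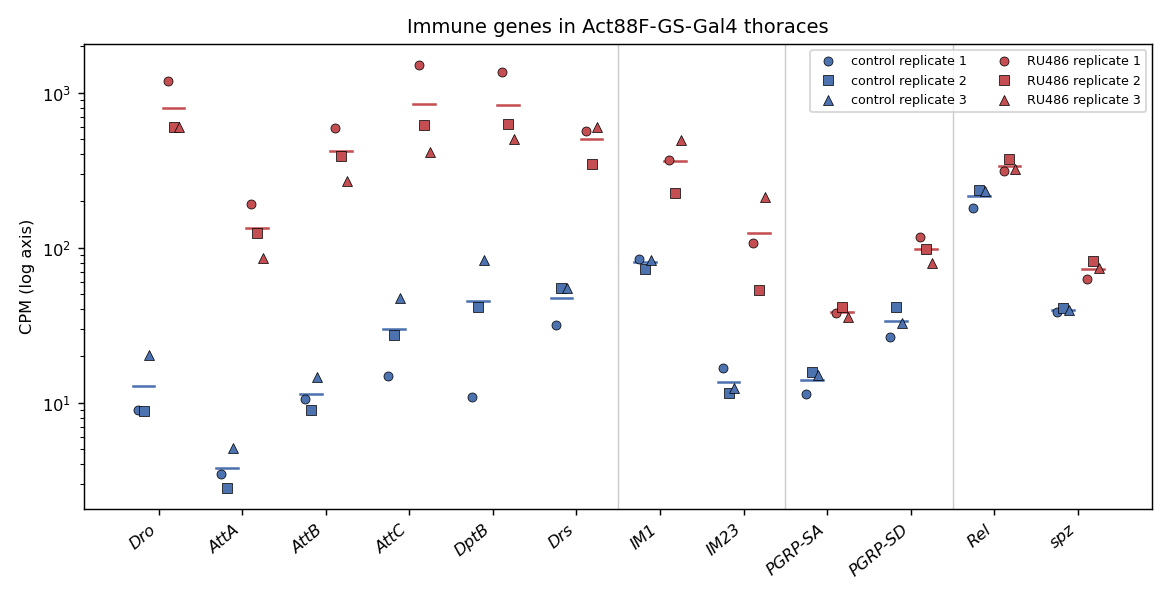
CPM of 12 immune genes on a log axis in each control sample (blue) and each RU486 sample (red) of Act88F-GS-Gal4 thoraces, with circles, squares and triangles for replicates 1, 2 and 3 and a short line at each group mean. Vertical lines part antimicrobial peptides, Toll-induced peptides, recognition proteins and signalling genes, and in each gene the 3 red points lie above the 3 blue ones, with the widest gap in Dro (8.95, 8.88 and 20.4 against 1188, 602 and 597 CPM). All 12 genes shown were called as rises, and members that fell or were not called, such as Tak1, Myd88 and AttD, are not shown.

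Proteins that sense bacteria also rose. Of 9 peptidoglycan recognition protein (PGRP) genes tested, 7 rose (77.8%, against 12.6% of all genes) and none fell. PGRP-SA, the circulating sensor that feeds the Toll pathway, went from 11.3, 15.8 and 15.1 CPM to 37.9, 41.3 and 35.7 CPM (log2 fold change 1.45, adjusted p = 0.000736), and PGRP-SD, which acts with it, from 26.5, 41.3 and 32.7 CPM to 117, 97.4 and 79.4 CPM (log2 fold change 1.55). PGRP-SC2, an amidase that degrades peptidoglycan, was called at 2.28, with 56.8, 28.98 and 22.2 CPM in controls and 279, 179.5 and 66.9 CPM after RU486. That call and the call of PGRP-SB1, also an amidase gene, were each lost without any 1 of control replicates 2 and 3 and RU486 replicates 1 and 2. PGRP-SB1 lost its call without control replicate 1 as well. The count of 7 fell to 3 without control replicate 3 and to 4 without RU486 replicate 1 or 2.

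Signalling genes changed by less than their targets, with a median log2 fold change of 0.37 in the Toll list. In that list 11 of 18 rose (61.1%, against 12.6% of all genes) and 1 fell (5.56%, against 19.9%). The count of rises was 6 without control replicate 2 and 7 without control replicate 1 or RU486 replicate 2. The Toll ligand gene spz went from 38.3, 41.1 and 39.8 CPM to 63.2, 81.8 and 74.0 CPM (log2 fold change 0.88, SE 0.10, adjusted p = 0.00161), and psh, a protease gene of the cascade that activates it, from 38.7, 43.4 and 45.95 CPM to 71.7, 72.4 and 67.5 CPM. The adaptor gene Myd88 fell, with 152, 179 and 185 CPM and 125, 120.3 and 114.98 CPM. CG13422, a gene of this list that encodes a secreted glucan-binding-like protein, rose more than the others named (log2 fold change 2.06). Of the 18 IMD genes 4 rose and 4 fell, 22.2% each, against 12.6% and 19.9% of all genes, so the falls were near the general share. The rises numbered 2 without control replicate 3 or RU486 replicate 2. Rel, the NF-kappaB factor of the pathway, rose from 181, 234 and 230.3 CPM to 314, 371 and 322 CPM (log2 fold change 0.64, SE 0.13, adjusted p = 0.0107), and the adaptor gene imd rose by 0.44. The kinase gene Tak1 fell by 0.76 on the log2 scale (136, 138 and 145 CPM against 79.9, 80.0 and 87.9 CPM), the deubiquitinase gene CYLD by 0.50 and the ubiquitin ligase gene Iap2 by 0.46.

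Complement-like and cytokine genes rose as well. TepII, TepIV and TepIII, which encode thioester proteins, had log2 fold changes of 0.996, 0.66 and 0.57. TepIV was even within groups, at 545, 522 and 523 CPM in controls and 843, 833 and 837 CPM after RU486. Of 12 JAK-STAT and Turandot genes 5 rose (41.7%, against 12.6% of all genes) and 1 fell (8.33%, against 19.9%). The cytokine gene upd2 rose from 0.272, 0.351 and 0.536 CPM to 1.23, 3.25 and 2.54 CPM, a log2 fold change of 2.604 at a low level. The Turandot genes TotM and TotB, stress-induced secreted proteins, were called at 1.89 and 1.86, but TotM lost its call without RU486 replicate 3 and TotB without control replicate 2 (adjusted p = 0.0503 and 0.0637). The receptor gene et fell, and its call was lost without each of control replicates 2 and 3 and RU486 replicates 2 and 3. The count of rises was 3 without control replicate 1 and 2 without control replicate 2.

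Several regulators of flight muscle identity fell. Of 17 genes for muscle fate and splicing regulators 7 fell (41.2%, against 19.9% of all genes) and none rose. The transcription factor gene salm, the selector of fibrillar muscle, stood at 99.4, 123 and 119 CPM in controls and at 20.5, 20.4 and 17.6 CPM after RU486, 5.82-fold lower (log2 fold change -2.54, SE 0.11, adjusted p = 0.000161). The transcription factor gene vg went from 113, 185 and 189 CPM to 32.4, 33.0 and 38.2 CPM (log2 fold change -2.23, SE 0.21), and the splicing factor gene aret from 357, 478 and 457 CPM to 74.5, 86.1 and 109 CPM (log2 fold change -2.26, SE 0.18). Control replicate 1 was the lowest control in each of the 3 genes, and the groups did not overlap. The relative of salm, salr, fell from 79.0, 61.0 and 59.5 CPM to 16.4, 18.2 and 12.1 CPM, and Mef2, the general muscle differentiation factor, from 257, 281 and 278 CPM to 169, 172 and 179.9 CPM (log2 fold change -0.65, SE 0.072, adjusted p = 0.00131). The other members called were Lmpt, a LIM domain protein gene, and Cf2, a zinc finger factor, at log2 fold changes of -1.01 and -0.33. In RU486 replicate 3, the library nearer to the controls in its muscle markers, salm and salr had their lowest treated level and vg, aret and Mef2 their highest, all below every control.

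Calcineurin genes fell beside them. Of 6 genes for subunits and regulators of this calcium-dependent phosphatase, which acts in flight muscle development, 3 fell (50%, against 19.9% of all genes) and none rose. The catalytic subunit gene CanA1 went from 142, 155 and 144 CPM to 42.7, 43.9 and 50.4 CPM (log2 fold change -1.69, SE 0.087, adjusted p = 0.000162). CanB2, a regulatory subunit gene, and sra, a modulator of calcineurin, fell by 0.45 and 0.39 on the log2 scale, although sra was no longer called when libraries were scaled by total counts.

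**Figure D2:**
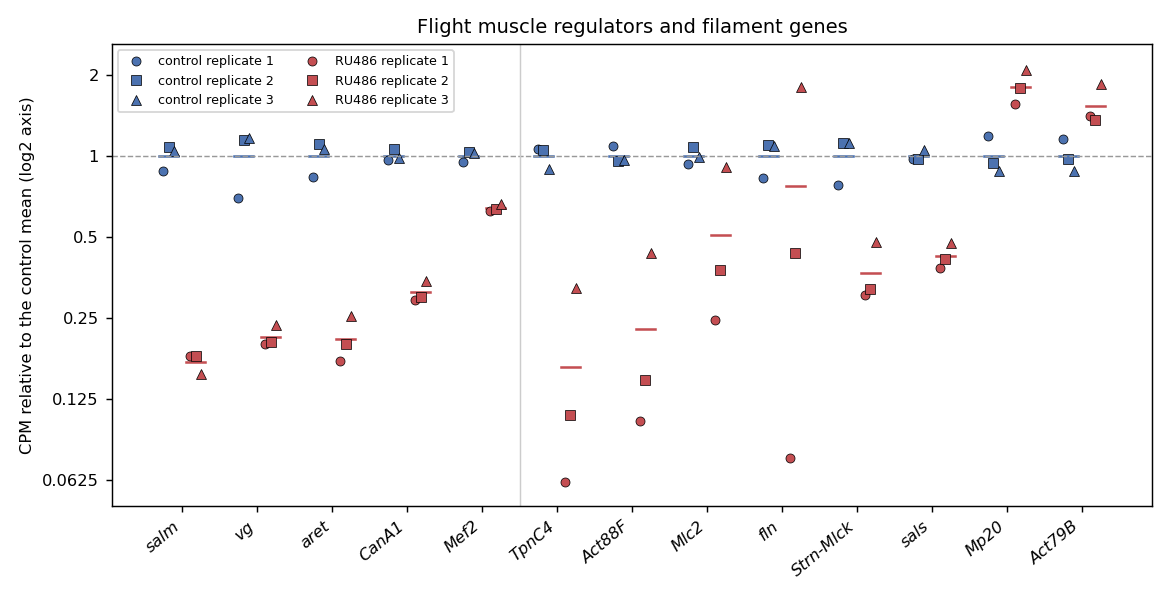
CPM of muscle genes divided by the control mean, on a log2 axis, in each control sample (blue) and RU486 sample (red), with circles, squares and triangles for replicates 1, 2 and 3 and a short line at each group mean. Regulators stand to the left of the vertical line and filament and Z-disc genes to the right. RU486 replicates lie close together in salm, vg, aret, CanA1 and Mef2, while in TpnC4, Act88F, Mlc2 and fln RU486 replicate 3 (triangle) lies far above replicates 1 and 2.

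Thin filament genes of the flight muscle were low in RU486 replicates 1 and 2 and less so in replicate 3. TpnC4, the troponin C of stretch activation, stood at 1163, 1149 and 975 CPM in controls and 67.3, 119 and 354 CPM after RU486 (log2 fold change -2.61, SE 0.60, adjusted p = 0.0200). Act88F stood at 2641, 2313 and 2332 CPM and 252, 356 and 1053 CPM (log2 fold change -2.13, SE 0.54, adjusted p = 0.0264). In both genes the groups did not overlap, but the calls depended on single libraries. TpnC4 was not called without control replicate 2 or 3 or RU486 replicate 2, and Act88F without any 1 control or without RU486 replicate 2 (adjusted p = 0.0603 to 0.0815), while both fell further without RU486 replicate 3, to -3.54 and -2.98. Since the driver holds a fragment around the start of Act88F, reads from that part of the gene and of the transgene cannot be told apart in the Act88F count.

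Of the 14 thin filament genes 4 rose and 4 fell, 28.6% each, against 12.6% and 19.9% of all genes. Act79B and TpnC25D, an actin gene and a troponin C gene of other muscles, were called as rises of 0.62 and 0.73 on the log2 scale, from 533, 451 and 405 CPM and 58.6, 42.8 and 39.7 CPM to 649, 626 and 856 CPM and 68.9, 71.5 and 94.4 CPM. Those calls did not survive the loss of single libraries: without control replicate 2 or 3 none of the 14 was called as a rise and 1 as a fall, and without RU486 replicate 2 the numbers were 2 and 0. The troponin T gene up was called at -0.63 and tmod, which caps the pointed end of the filament, at -0.69.

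Among 10 genes of the thick and connecting filaments 4 fell (40%, against 19.9% of all genes) and none rose. They were the giant proteins that tie thick filaments to the Z-disc and M-line: Strn-Mlck (stretchin, 2168, 3103 and 3096 CPM against 844, 891 and 1330.5 CPM), Unc-89 (obscurin), bt (projectin) and sls (kettin and Sallimus), at log2 fold changes of -1.45, -1.11, -1.04 and -0.82. The call of bt was lost without control replicate 2 or 3 or RU486 replicate 1 or 2. Flightin (fln), a myosin rod binding protein of flight muscle, was not called, at 662, 879 and 869.9 CPM in controls and 60.3, 351 and 1450.4 CPM after RU486, where replicate 1 lay below and replicate 3 above every control. The myosin light chain gene Mlc2 had 9996, 11596 and 10591 CPM and 2635, 4019 and 9704 CPM, and Mhc, the single muscle myosin heavy chain gene, 4542, 3773 and 3813 CPM and 3211, 3459 and 4977 CPM. The number of falls was 8 without RU486 replicate 3, and 2 without control replicate 2 or RU486 replicate 2.

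At the Z-disc and the attachment sites, 7 of 21 genes fell (33.3%, against 19.9% of all genes) and 3 rose (14.3%, against 12.6%). The gene sals, which sets thin filament length, fell from 531, 531 and 573 CPM to 208, 226 and 259 CPM (log2 fold change -1.24, SE 0.10, adjusted p = 0.000523). The PDZ-LIM protein genes Zasp52 and Zasp66 fell by 0.89 and 0.82 on the log2 scale. Mp20, a calponin-like protein of synchronous muscle, rose from 397, 316 and 296 CPM to 522, 600.1 and 699 CPM (log2 fold change 0.85, SE 0.16), as did the filamin gene cher and Lasp, by 0.51 and 0.41. The falls numbered 4 without control replicate 2 or RU486 replicate 1 and 3 without RU486 replicate 2 or with total count scaling. Amph, amphiphysin of the T-tubules, was the member called among 12 genes of excitation and calcium handling, at 479, 650.1 and 661 CPM and 279, 294 and 334 CPM.

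Most genes of glycolysis, the main carbohydrate pathway of flight muscle, fell. Of 13 glycolysis genes 8 fell (61.5%, against 19.9% of all genes) and 2 rose (15.4%, against 12.6%). Their median was -0.86 on the log2 scale, and the falls numbered 8 to 11 when 1 library was left out. Aldolase, Ald, went from 11005, 13284 and 12608 CPM to 3459, 4067 and 5621 CPM (log2 fold change -1.49, SE 0.21, adjusted p = 0.00312). Phosphofructokinase, Pfk, the committed step, went from 637, 749.8 and 682 CPM to 320.0, 337 and 377 CPM (log2 fold change -1.001, SE 0.11). Pglym78, Eno, Pgi and the hexokinase gene Hex-A fell by 1.06, 0.89, 0.88 and 0.63 on the log2 scale. Control and RU486 samples did not overlap in any of these 6 genes. Hex-C, a hexokinase gene of other tissues, rose from 70.6, 81.1 and 85.1 CPM to 109.9, 111 and 109 CPM, and ImpL3, lactate dehydrogenase, was called at 1.25, with 31.3, 33.4 and 33.1 CPM in controls and 49.96, 128.4 and 53.2 CPM after RU486, a call that was lost without any 1 of the controls.

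Glycogen enzymes fell beside glycolysis. In the list for glycogen, trehalose and gluconeogenesis 7 of 16 genes fell (43.75%, against 19.9% of all genes) and 3 rose (18.75%, against 12.6%). Glycogen synthase, CG6904, went from 557, 764 and 695 CPM to 211, 238 and 317 CPM (log2 fold change -1.40, SE 0.19), and UGP, which makes the UDP-glucose it uses, from 1125, 1543 and 1494 CPM to 555, 556 and 512 CPM (log2 fold change -1.36, SE 0.14). The glycogen debranching enzyme CG9485 and glycogen phosphorylase, GlyP, fell by 1.22 and 0.94. CG10924, a phosphoenolpyruvate carboxykinase gene, fell from 34.9, 52.4 and 55.3 CPM to 9.90, 12.5 and 7.92 CPM, whereas fructose-bisphosphatase, fbp, rose from 96.7, 94.0 and 91.0 CPM to 141, 138 and 134 CPM. The phosphoenolpyruvate carboxykinase gene Pepck was called as a rise of 0.53 and the trehalose transporter gene Tret1-2 as a rise of 0.74, and both calls were lost without control replicate 2 or without RU486 replicate 2, leaving fbp as the 1 rise. A maltase gene, Mal-A5, fell from 594, 674 and 639 CPM to 199, 203 and 197 CPM (log2 fold change -1.67, SE 0.083, adjusted p = 0.000161). The spread within either group of Mal-A5 was small beside the gap between them.

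The enzymes of proline oxidation fell as well. In the list of flight fuel shuttles 4 of 12 genes fell (33.3%, against 19.9% of all genes) and 1 rose (8.33%, against 12.6%). Proline dehydrogenase, slgA, went from 597, 797 and 803 CPM to 318, 322 and 364 CPM (log2 fold change -1.13, SE 0.14, adjusted p = 0.00195), and P5CDh1, the next enzyme, from 592, 718 and 725 CPM to 306, 314 and 374 CPM. Gpdh, the cytosolic enzyme of the glycerophosphate shuttle, fell by 0.60 on the log2 scale, and its mitochondrial partner Gpo-1 did not pass the test, at 1075, 1114 and 1008 CPM and 281, 411 and 891 CPM. The aspartate aminotransferase gene Got2 was called as a rise of 0.51, which was lost without control replicate 2 or 3 or RU486 replicate 2.

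**Figure D3:**
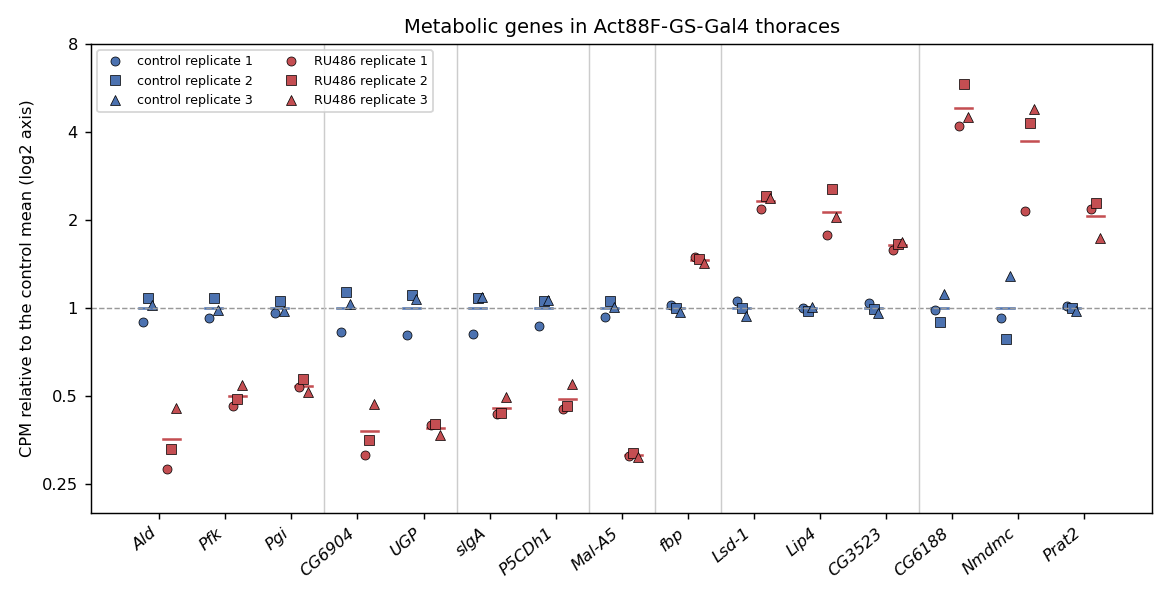
CPM of metabolic genes divided by the control mean, on a log2 axis, in each control sample (blue) and RU486 sample (red), with circles, squares and triangles for replicates 1, 2 and 3 and a short line at each group mean. From left to right the vertical lines part glycolysis, glycogen synthesis, proline oxidation, a maltase, fructose-bisphosphatase, lipid storage and one-carbon and purine genes. RU486 samples lie below the controls up to Mal-A5 and above them from fbp on. Members that moved the other way, such as Hex-C in glycolysis and CG17273 in purine synthesis, are not shown.

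Lipid storage genes went the other way. Of 18 genes for lipid storage and synthesis 7 rose (38.9%, against 12.6% of all genes) and none fell. The perilipin gene Lsd-1, which coats lipid droplets and gates lipolysis, went from 223, 212 and 199 CPM to 459.6, 512 and 503 CPM (log2 fold change 1.22, SE 0.086, adjusted p = 0.000312), and the lipase gene Lip4 from 38.8, 37.9 and 39.1 CPM to 68.8, 98.2 and 79.1 CPM. Fatty acid synthase, CG3523, rose from 1725, 1649 and 1603 CPM to 2628, 2759.6 and 2801 CPM (log2 fold change 0.72, SE 0.097). The groups did not overlap in these 3 genes, and the other 4 rises, of desat1, Lsd-2, mdy and dob, lay between 0.55 and 0.61. In fatty acid oxidation 6 of 19 genes rose (31.6%, against 12.6% of all genes) and 3 fell (15.8%, under the 19.9% of all genes). The acyl-CoA dehydrogenase gene CG7461 fell by 0.75 on the log2 scale and CG12262 by 0.45, and CG3902, also an acyl-CoA dehydrogenase gene, and scu, a hydroxyacyl-CoA dehydrogenase gene, rose by 0.64 and 0.61. The 3 falls became 5 without control replicate 1, and 1 with total count scaling, where CG12262 was not called.

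One-carbon and purine genes moved in both directions. Of 18 genes for purine, serine and one-carbon metabolism 8 rose (44.4%, against 12.6% of all genes) and 4 fell (22.2%, near the 19.9% of all genes). CG6188, glycine N-methyltransferase, which uses up S-adenosylmethionine, went from 66.6, 60.8 and 75.5 CPM to 285, 396 and 304 CPM (log2 fold change 2.28, SE 0.15, adjusted p = 0.000298). Nmdmc, the folate enzyme of mitochondria, went from 31.5, 26.8 and 43.9 CPM to 73.3, 146 and 163 CPM, with RU486 replicate 1 the lowest treated library. Prat2, a phosphoribosyl-amidotransferase gene that opens purine synthesis, rose from 151, 149.6 and 145 CPM to 324, 342 and 259 CPM, and the 4 falls became 2 with total count scaling. Prat, a paralog of Prat2, was called at -0.49, lost without each library except control replicate 1. The adenylosuccinate synthetase gene CG17273 fell from 416, 432 and 435 CPM to 226, 237 and 252 CPM.

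Genes of cuticular hydrocarbon and very long chain lipid synthesis were among the largest falls. The fatty acid elongase gene CG16904 stood at 39.0, 126.3 and 98.1 CPM in controls and at 10.1, 13.8 and 8.83 CPM after RU486 (log2 fold change -3.001, SE 0.45). The elongase genes CG6660 and CG9458 fell by 3.83 and 3.13, and the fatty acyl-CoA reductase gene CG13091 by 2.63. Cyp4g1, the oenocyte P450 that completes hydrocarbon synthesis, went from 2484, 7515 and 6292 CPM to 788, 813 and 535 CPM (log2 fold change -2.93, SE 0.44, adjusted p = 0.00426). Control replicate 1 lay well under the other controls in each of these genes and above every RU486 sample. Other members of the families did not follow. Of 13 elongase genes 4 fell (30.8%, against 19.9% of all genes) and 3 rose (23.1%, against 12.6%). Of 13 reductase genes 3 fell (23.1%, near the general share) and 5 rose (38.5%). The reductases called as rises were 2 without control replicate 3 and 3 without control replicate 2 or RU486 replicate 2. The summed level of 4 oenocyte markers, nearly all of it Cyp4g1, was 2509 to 7565 CPM in controls and 572 to 846 CPM after RU486, and the part of oenocyte content in these falls was not tested.

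Other large falls lay outside these families. CG15617 had the largest fall of the genes whose mean log2 CPM reached 4, from 92.7, 145 and 127.3 CPM to 2.15, 3.73 and 7.41 CPM (28.2-fold, log2 fold change -4.82, SE 0.48, adjusted p = 0.00101). CG34423 went from 717, 490.3 and 497 CPM to 79.8, 86.5 and 71.4 CPM, CG14695 from 122, 72.1 and 85.2 CPM to 14.2, 14.01 and 10.8 CPM, and CG18522, an aldehyde oxidase gene, from 2479.7, 4136 and 3501 CPM to 563, 508 and 411 CPM. Control and RU486 ranges were far apart in all 4. The remaining genes among the 8 largest falls, CG7910 and CG15531, had the control pattern of the elongases, with 121, 365 and 305 and 34.1, 92.9 and 82.1 CPM in controls and 28.6, 30.7 and 18.8 and 9.09, 11.5 and 3.31 CPM after RU486.

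Regulators of mitochondrial content and energy sensing fell in part. Of 20 genes 9 fell (45.0%, against 19.9% of all genes) and none rose. TFAM, which packages mitochondrial DNA, went from 205, 272 and 252 CPM to 43.5, 58.3 and 84.9 CPM (log2 fold change -1.97, SE 0.26, adjusted p = 0.00254). Sirt4, a mitochondrial sirtuin gene, went from 98.0, 95.1 and 92.6 CPM to 25.3, 27.6 and 27.2 CPM (log2 fold change -1.83, SE 0.065, adjusted p = 0.000161), and bigmax, the partner of the sugar sensor Mondo, from 43.5, 42.1 and 45.5 CPM to 23.6, 22.6 and 20.6 CPM. Control and RU486 ranges were well apart in all 3 genes. The fly PGC-1 homolog Spargel was not called, at 20.3, 21.6 and 22.4 CPM and 22.2, 27.0 and 32.2 CPM (log2 fold change 0.34, adjusted p = 0.104), and was called as a rise without RU486 replicate 1 or with total count scaling. The nuclear receptor gene ERR, an activator of glycolysis, and the Myc gene dm were not called either, at -0.11 and -0.077.

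Insulin and hormone genes gave few steady calls. Of 24 insulin and TOR genes 7 fell (29.2%, against 19.9% of all genes) and 1 rose (4.17%, against 12.6%). The falls numbered 1 without control replicate 2, control replicate 3 or RU486 replicate 2, 4 without RU486 replicate 1 and 2 with total count scaling. Tsc1, an inhibitor of TOR, fell from 68.2, 74.6 and 69.0 CPM to 50.3, 49.6 and 47.6 CPM, and was called whichever library was left out. The transcription factor gene foxo was called at -0.60 (169, 253 and 243 CPM against 158, 148 and 134 CPM), and lost the call without each library except control replicate 1 and with total count scaling. The insulin-like peptide gene Ilp6 was called as a rise of 0.76, lost without control replicate 3 or RU486 replicate 1 or 2, and ImpL2, an insulin-binding protein gene, at -0.79, lost without control replicate 2 or 3 or RU486 replicate 2. InR, the insulin receptor, stood at 24.1, 65.8 and 66.6 CPM and 51.7, 65.3 and 65.5 CPM and Thor, the 4E-BP gene, at 413, 621 and 727 CPM and 308, 447 and 415 CPM, and neither was called, although Thor was called as a fall without control replicate 1. Among 18 nuclear receptor genes 1 rose and 1 fell, 5.56% each, against 12.6% and 19.9% of all genes. The 2 were Hr4 and svp, whose calls were both lost without control replicate 2, control replicate 3 or RU486 replicate 2. EcR, the ecdysone receptor, was not called (-0.16). Of 17 ecdysone and juvenile hormone genes 6 fell (35.3%, against 19.9% of all genes) and 1 rose (5.88%, against 12.6%). The falls numbered 4 to 7 when 1 library was left out. The epoxide hydrolase genes Jheh3 and Jheh1, which break down juvenile hormone, went from 140.1, 185 and 154 CPM to 69.7, 66.7 and 57.8 CPM and from 83.5, 88.0 and 90.6 CPM to 128.6, 131.3 and 146 CPM.

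Heat shock genes did not move as a group. Hsc70-1, a heat shock cognate gene, fell from 506, 513 and 484 CPM to 191, 194 and 188 CPM (log2 fold change -1.39, SE 0.071, adjusted p = 0.000162), and Hsp83, the fly Hsp90, from 1761, 1631 and 1823 CPM to 963, 1144 and 1023 CPM (log2 fold change -0.74, SE 0.11). The co-chaperone gene stv fell by 0.68 on the log2 scale and the small heat shock protein gene CG14207 by 0.67. The stress-induced Hsp70 genes, near-identical copies among which reads cannot be divided with certainty, were not called: Hsp70Aa stood at 21.3, 12.9 and 28.2 CPM in controls and 13.3, 94.5 and 324 CPM after RU486, with RU486 replicate 1 inside the control range and replicates 2 and 3 above it. Without RU486 replicate 1, 7 of the 17 genes of this list were called as rises, where none had been. Hsp27 rose from 2.26, 2.36 and 2.00 CPM to 5.59, 10.2 and 15.96 CPM, and Hsp23 was called at 1.77, lost without any 1 control or without RU486 replicate 2. Hsp26 stood at 44.7, 42.4 and 49.5 CPM and 29.7, 54.7 and 85.8 CPM, with overlapping groups (log2 fold change 0.31, adjusted p = 0.527), and the heat shock factor gene Hsf at 0.02.

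Redox and stress genes moved in both directions. Sesn, sestrin, an inhibitor of TOR that is induced by oxidative stress, fell from 757, 1271 and 1178 CPM to 262, 275 and 364 CPM (log2 fold change -1.83, SE 0.23, adjusted p = 0.00212). Among 18 antioxidant genes 5 rose (27.8%, against 12.6% of all genes) and 4 fell, a share of 22.2% near the 19.9% of all genes. Thioredoxin reductase, Trxr-1, fell from 729.6, 816 and 809.8 CPM to 317, 360.4 and 334 CPM (log2 fold change -1.22, SE 0.094), and PHGPx, a glutathione peroxidase-like gene, and the mitochondrial superoxide dismutase gene Sod2 fell by 1.405 and 1.03. The peroxiredoxin genes Prx2540-2 and Prx2540-1, close copies of each other, rose by 1.08 and 0.84. The rises numbered 3 without control replicate 2 or 3 or RU486 replicate 2. Asparagine synthetase, a target of the integrated stress response, rose from 42.0, 32.8 and 40.4 CPM to 67.1, 85.6 and 82.95 CPM (asparagine-synthetase, log2 fold change 1.03), while Gadd34, which ends that response, fell by 0.78. Of 20 glutathione transferase genes 10 rose (50%, against 12.6% of all genes) and 1 fell (5%, against 19.9%). Without control replicate 2 or 3 or RU486 replicate 2, 6 rose. GstD5, in a cluster of related genes, went from 0.954, 1.28 and 1.16 CPM to 3.50, 17.0 and 19.8 CPM (log2 fold change 3.58, SE 0.67), with RU486 replicate 1 the lowest treated library.

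**Figure D4:**
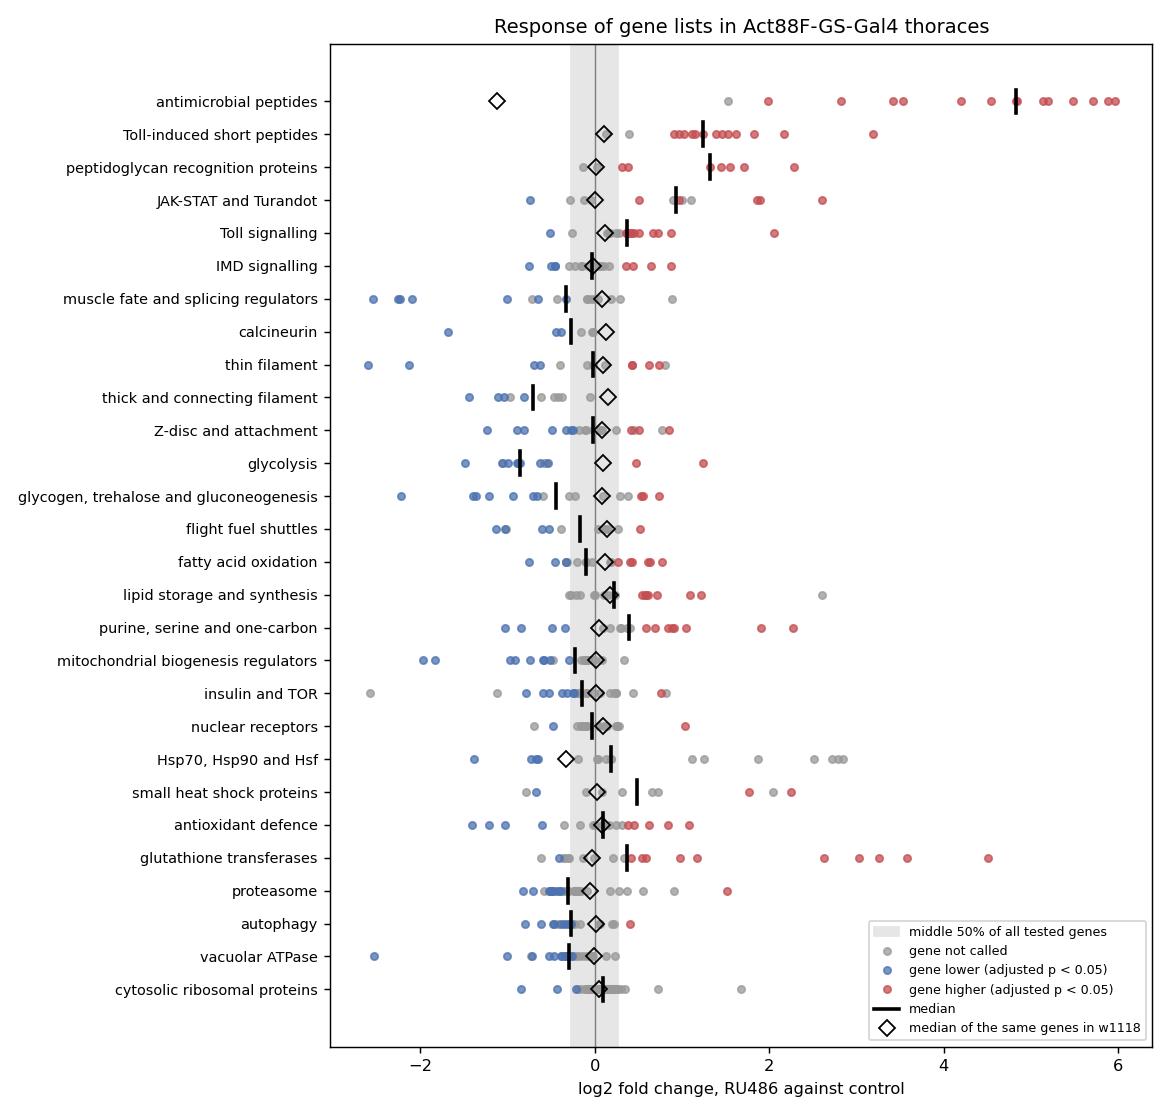
Log2 fold change of RU486 against control for each tested gene of 28 lists in Act88F-GS-Gal4 thoraces (red, rose; blue, fell; grey, not called), with the list's median as a black bar, the median of the same genes in w1118 thoraces as an open diamond, and the middle 50% of all genes tested as a grey band. Antimicrobial peptides have the highest median (4.83) and glycolysis the lowest (-0.86).

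The response of the same genes in w1118 thoraces was tested directly against that of Act88F-GS-Gal4. In w1118 none of 12980 genes passed the threshold by edgeR, with 665 higher and 529 lower at an unadjusted p under 0.05 and a smallest adjusted p of 0.539. This does not show an absence of response in w1118, whose libraries also differed in the tissue carried along, as given below. The difference of the responses, over the 12 thorax samples, was called higher in Act88F-GS-Gal4 for 4.29% of 13019 genes and lower for 11.9%. The Act88F-GS-Gal4 samples enter both this test and the one within the stock. By list, the difference was called for 10 of 15 antimicrobial genes, 10 of 15 Toll-induced peptides, 8 of 17 muscle regulators (all lower), 8 of 13 glycolysis genes as lower, 7 of 16 glycogen and gluconeogenesis genes as lower and 8 of 20 mitochondrial regulators (all lower). For 3 genes with little spread the differences were -2.66 for salm (edgeR's quasi-likelihood adjusted p = 3.7e-05), -1.75 for Mal-A5 (adjusted p = 2.86e-05) and -1.89 for Sirt4 (adjusted p = 1.51e-05) on the log2 scale.

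The antimicrobial result has a wide spread in w1118. With all 12 libraries scaled together, the antimicrobial genes summed to 1950, 486 and 132 CPM in w1118 controls, to 699, 307 and 342 CPM in w1118 flies on RU486, to 172, 275 and 465 CPM in Act88F-GS-Gal4 controls and to 9081, 4684 and 3628 CPM in Act88F-GS-Gal4 flies on RU486. A w1118 control library thus reached above every other untreated library, and the Act88F-GS-Gal4 RU486 libraries lay above all of the other 9. Testis genes, whose mean log2 CPM was -3.61 to -2.85 in Act88F-GS-Gal4 and 0.31 to 4.65 in w1118, also differed between the stocks, so that genotype and the tissue taken with the thorax cannot be told apart between them. Within w1118 the testis level was 3.68, 4.48 and 4.65 in controls and 0.31, 3.99 and 2.90 after RU486. Accessory gland markers stood at 3.53, 3.94 and 3.60 in w1118 controls and at -2.05, 2.49 and 3.39 after RU486. Without w1118 RU486 replicate 1 the difference of responses was called higher for 649 genes and lower for 1312. With the testis level as a covariate these counts were 541 and 1079.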

How the data were processed

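The authors extracted RNA with TRIzol, sequenced stranded mRNA libraries, mapped reads to BDGP5.75 (dm3 in the submitters' processing notes, which name BWA, STAR and HTSeq without versions) and deposited whole-number HTSeq counts per gene for each sample. The deposited counts, with unassigned reads left out, were tested in R 4.3.3 with edgeR 4.0.16 (filterByExpr, TMM factors, robust quasi-likelihood test, Benjamini-Hochberg adjustment, threshold 0.05) within the 6 Act88F-GS-Gal4 thoraces, and as an interaction over 12 thoraces. CPM used a prior count of 1 on the log2 scale. The fits were tested on simulated data. Alternatives were limma 3.58.1 (voom), DESeq2 1.42.0, other scalings and filters, covariates and left-out libraries.

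Genes were named by rule: up to 3 rises and 3 falls per list among genes called and without overlap between groups, the 8 largest each way over all genes with a mean log2 CPM of at least 4, the 5 largest differences each way between stocks, and 16 regulators and marker genes whatever their values. Members of lists outside this rule, such as salr, Lmpt, Cf2, up, sls, fln, Mlc2, Mhc, Gpo-1 and Hsp70Aa, were named after their values were seen. The members and lists were chosen with earlier results of these data known. Mitochondrial respiratory genes and heads were left out as outside the question. No genome of the files' build was used.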

Additional observations from a re-analysis of the deposited data

Results flagged for a closer look

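The response to RU486 differed between Act88F-GS-Gal4 and w1118 thoraces, by edgeR's quasi-likelihood test of the interaction with Benjamini-Hochberg adjustment over 13019 genes, higher for 559 genes and lower for 1545. Differences are given as the log2 response in Act88F-GS-Gal4 minus that in w1118. Among immune genes the difference was 7.97 for Dro, 6.72 for AttB, 6.51 for AttA, 5.87 for AttC, 5.94 for DptB, 2.96 for Drs and 3.05 for IM23 (adjusted p from 0.00626 for Dro to 0.0365 for DptB). The w1118 controls spread widely in these genes, as the sums of 1950, 486 and 132 CPM show.

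In lipid and cuticle genes the difference was -3.40 for CG16904, -3.44 for CG9458, -3.25 for Cyp4g1 and -3.44 for CG15531. It was -4.80 for CG15617, -3.51 for CG7910, -2.79 for CG34423, -2.75 for CG14695 and -2.79 for CG18522. In muscle and regulators it was -2.66 for salm, -2.55 for Act88F, -0.80 for Mef2, -0.69 for foxo, -1.05 for ImpL2 and -0.49 for Hsp83. Adjusted p was 3.7e-05 for salm, 0.000142 for Mef2 and 0.000187 for CG18522, and 0.0264 for Act88F and 0.0373 for foxo.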

How the results depend on the processing

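Counts of rises and falls in Act88F-GS-Gal4, 1332 and 2112, moved with the settings: 2631 and 1264 with total count scaling, 297 and 858 with an unequal-variance test, 648 and 1148 with the testis marker level as a covariate, and 877 rises with the replicate block. Leaving out 1 library gave 660 to 1391 rises and 1378 to 2296 falls, with 660, 676 and 705 rises without control replicate 2, control replicate 3 and RU486 replicate 2, and 1378 falls without RU486 replicate 2. Leaving out control replicate 1 and RU486 replicate 3 together, chosen after seeing the data, gave 2042 rises. Differences between stocks, 559 higher and 1545 lower, became 1353 and 851 with total counts and 1268 higher by DESeq2. Leaving out 1 of the 12 gave 307 to 649 higher and 1237 to 1772 lower, the higher ones numbering 307 without w1118 RU486 replicate 3, 327 and 326 without Act88F-GS-Gal4 control replicates 2 and 3 and 355 without RU486 replicate 2. Deviations of same-numbered samples from their group means had correlations of -0.15, 0.052 and -0.099, and those of differently numbered samples -0.13 to 0.16. These values show no pairing by number, but with 3 samples per group they cannot exclude it. In the replicate block 30 of 182 named calls were lost, among them DptB. Of those 182, 53 lost the call without at least 1 library, 118 with the unequal-variance test, 67 with the testis covariate, 15 with total counts, 10 by voom and 1 by DESeq2. With the unequal-variance test the antimicrobial rises numbered 6 in place of 14, the Toll-induced peptides 2 in place of 13 and the JAK-STAT genes 0 in place of 5. Reversals were in genes that were not called. Log2 fold changes became -0.76 for Hsp26, -0.017 for Spargel, 0.011 for ERR and -0.16 for InR with the testis covariate. With total counts they became 0.018 for EcR, 0.067 for ERR and 0.10 for dm. With both libraries out they were -0.11 for Hsp26 and -0.16 for InR. Leave-one-out ranges were -0.096 to 0.62 for Hsp26, -0.0069 to 0.049 for Hsf, -0.12 to 0.43 for InR and -0.29 to 0.050 for dm. Differences between stocks became -0.063 for Hsp26 (testis covariate), 0.056 for InR and 0.027 for dm (total counts) and 0.054 for InR (replicate block), with leave-one-out ranges of -0.0068 to 0.042 for Hsf and -0.50 to 0.13 for InR. The causes were not tested.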

Other observations

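Genes of the vacuole and of protein breakdown were lower in part. Of 23 genes for the vacuolar ATPase, the proton pump of lysosomes and other acid compartments, 12 fell (52.2%, against 19.9% of all genes) and none rose. Vha68-1, a catalytic subunit gene, went from 388, 384 and 385 CPM to 215, 219.6 and 269 CPM, and Vha100-5 from 34.2, 53.8 and 45.9 CPM to 24.2, 24.2 and 18.0 CPM. The falls numbered 7 without control replicate 2 or 3, 6 without RU486 replicate 2 and 3 with total count scaling. Of 18 autophagy genes 9 fell (50%, against 19.9% of all genes) and 1 rose (5.56%, against 12.6%). Atg8a, whose product coats the autophagosome, went from 604, 729 and 703 CPM to 449.7, 444 and 435 CPM, and Atg6 from 27.3, 26.9 and 27.3 CPM to 19.7, 19.2 and 19.5 CPM. The count was 5 without control replicate 2 or 3 or RU486 replicate 2 and 3 with total counts. Of 32 proteasome genes 10 fell (31.25%, against 19.9% of all genes) and 1 rose (3.125%, against 12.6%), with 1 fall left without RU486 replicate 2.

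Of 13 clock genes 3 rose (23.1%, against 12.6% of all genes) and 4 fell (30.8%, against 19.9%). Clk, the activator of the clock, went from 27.8, 28.6 and 27.5 CPM to 38.0, 35.6 and 34.8 CPM, and vri, a repressor of Clk, from 365, 429 and 434 CPM to 231, 239 and 188 CPM. Without control replicate 3 or RU486 replicate 2 the rises numbered 1, without control replicate 1 they numbered 5, and without control replicate 2 or 3 or RU486 replicate 2 or 3 the falls numbered 2. Of 96 cuticle protein genes 28 passed the filter on low counts. Of these 28, 11 rose (39.3%, against 12.6% of all genes) and 1 fell (3.57%, against 19.9%). The fall was Cpr66D, from 53.3, 45.4 and 38.1 CPM to 17.2, 16.5 and 7.52 CPM. The rises numbered 5 without control replicate 2 or RU486 replicate 2 and 4 without control replicate 3. Some of the rises were in genes near 0 in controls. In Act88F-GS-Gal4, TwdlE stood at 0.063, 0 and 0.061 CPM in controls and 1.97, 1.03 and 0.43 CPM after RU486, with both stocks scaled together. Such a gene entered the test through its RU486 samples, so the filter may bear on the count of rises. Of 45 odorant-binding protein genes 20 passed the same filter. Of these 20, 7 rose (35%, against 12.6% of all genes) and none fell. Among the rises was Obp83cd, from 1.25, 1.09 and 0.790 CPM to 2.66, 2.59 and 2.79 CPM. Obp19a, also among them, stood at 0.17, 0.21 and 0.061 CPM in controls and 1.44, 0.88 and 1.95 CPM after RU486, scaled as for TwdlE. The filter may thus bear on this count as well. The rises ranged from 5, without control replicate 2, to 9, without control replicate 1, and 1 gene fell without control replicate 3. On chromosome 4, 1 of 81 tested genes rose (1.23%, against 12.6% of all genes) and 22 fell (27.2%, against 19.9%), where the other major arms had 18.3% to 21.6% lower.

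Several genes that fell had levels after RU486 close to those of w1118, and high levels in Act88F-GS-Gal4 controls. With all 12 thoraces scaled together, Trxr-1 stood at 787, 885 and 877 CPM in Act88F-GS-Gal4 controls, at 346, 392 and 362 CPM after RU486, and at 343 to 371 CPM in the 6 w1118 samples. Sesn stood at 816, 1379 and 1275 CPM, at 286, 299 and 394 CPM, and at 268 to 337 CPM in w1118. CG18522 stood at 2674, 4486 and 3791 CPM, at 614, 553 and 445 CPM, and at 369.5 to 485 CPM in w1118. The controls, more than the treated samples, were thus the libraries apart from w1118 in these 3 genes. Muscle and glycolysis genes named above included the same pattern. TpnC4 stood at 1056 to 1254 CPM in controls, 73.4 to 383 CPM after RU486 and 149 to 273 CPM in w1118. Ald stood at 11865 to 14411, 3772 to 6091 and 3939 to 5466 CPM. For salm, w1118 (30.9 to 42.5 CPM) lay between the RU486 samples (19.1 to 22.3) and the controls (107 to 133). Cyp4g1 went the other way, at 2678 to 8153, 579 to 885 and 6534 to 11420 CPM. Of the 2112 genes that fell, all 3 Act88F-GS-Gal4 controls lay above all 6 w1118 samples in 1528 (72.3%), against 34.7% of the 10600 genes tested, and all 3 RU486 samples did so in 316 (15.0%, against 29.5%), but all 3 RU486 samples lay below all 6 w1118 samples in 833 (39.4%, against 21.8%). Of the 1332 genes that rose, the controls lay below all w1118 samples in 552 (41.4%, against 19.5%) and the RU486 samples above them in 618 (46.4%). The same Act88F-GS-Gal4 samples chose these genes and enter these counts, which are a description. The stocks differ in background and in the tissue carried along, and these cannot be told apart.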
